A study of Mus musculus with 20 samples.

Results

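The hippocampus was compared between mice under ketamine with xylazine and mice under isoflurane, both held for 3 h, across WT mice and mice carrying the APPSwe and PS1ΔE9 transgenes (APP/PS1). The members are all 11 single-nucleus libraries labelled with either agent, of 20 in the series, and every nucleus in them, 89341 of 160777. The 4 ketamine libraries came from APP/PS1 mice 25 and 26 and WT mice 27 and 28, which received ketamine at 150 mg/kg with xylazine at 12 mg/kg. The 7 isoflurane libraries came from WT mice 3, 16 and 18 and APP/PS1 mice 4, 11, 15 and 20, in which isoflurane started at 5% and was lowered to 1.5%. All mice were males of 4.5 to 5.5 months on the C57BL/6J background. The APP/PS1 mice were hemizygous, and both transgenes in this line are driven by the prion promoter. The 9 remaining libraries, labelled Wake, came from 6 WT and 3 APP/PS1 mice that were not anesthetized and serve here only as a reference. By the study's methods, tissue was handled in small batches that mixed awake and anesthetized mice of both genotypes, and batch was a term in its test. No label says which mouse was in which batch. Mice 1 to 4 hold 1 mouse each of the awake and isoflurane groups of both genotypes, but mice 25 to 29 form a separate stretch of mouse numbers: it holds all 4 ketamine mice and 1 awake WT mouse, number 29, and no isoflurane mouse. Agent and this stretch cannot be told apart between the 11 libraries, so the level of awake mouse 29 is given beside the levels of most genes, and the ranges printed for awake mice leave it out.

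Ketamine blocks the NMDA class of glutamate receptors, and xylazine activates alpha-2 adrenergic receptors, which damp noradrenaline release. Isoflurane is an inhaled anesthetic that acts mainly by strengthening GABA type A receptors and opening potassium leak channels. All of them change how hippocampal neurons fire, and neuronal firing in turn drives immediate-early genes such as Fos and Npas4, transcription factors that are switched on within minutes of activity. Anesthesia also changes body temperature, stress hormones, blood glucose and oxygen supply, each of which has its own set of responsive genes. Messenger RNA counted in nuclei is mostly young, often unspliced transcript, so the levels below follow transcription and nuclear retention more closely than they follow protein.

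Total UMIs, the counted molecules, ran from 9243992 to 18736161 in the ketamine libraries and from 17552792 to 22659054 in the isoflurane libraries. Nuclei numbered 5127 to 8953 and 7109 to 10877, and the median nucleus held 1235 to 1530 UMIs and 838 to 941 genes under ketamine, and 1495 to 2504 UMIs and 949 to 1519 genes under isoflurane. Mitochondrial UMIs made up 0.0353% to 0.0747% under ketamine, and up to 1.78% and 0.939% in isoflurane mice 3 and 4. Of 26 such library measures, summed cell type markers included, none passed an adjusted p of 0.05 in an exact permutation test over the 330 ways to choose 4 of 11 libraries, whose smallest possible p is 0.00303, and 5 had an unadjusted p under 0.05. Over 26 measures that smallest p adjusts to 0.0788 for 1 measure, so a measure apart on its own could not pass. Pairs of these libraries shared 6 to 32 cell barcodes, at most 0.371% of the smaller library. Prnp, the gene whose promoter drives the transgenes, whose reads may therefore be counted to it, was at 202 and 191 CPM (UMI counts scaled to a common library size with TMM) in the ketamine libraries labelled APP/PS1 and at 43.9 and 48.6 CPM in those labelled WT. In the isoflurane libraries it did not separate the labels: those labelled APP/PS1 had 280 CPM in mouse 4, 67.8 CPM in mouse 11, 310 CPM in mouse 15 and 99.0 CPM in mouse 20, and those labelled WT 61.2 to 132 CPM. The labels of mice 11 and 20 were thus not borne out by Prnp. The design text of the series also counts the isoflurane mice otherwise, as 4 WT and 3 APP/PS1 where the sample labels give 3 and 4, and the awake mice as 5 and 4 where the labels give 6 and 3, so at least 1 genotype label in each set may be wrong. Genotype is used here as labelled.

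Between the 2 sets of libraries, the smallest p for a class share was that of fibroblast-like nuclei, named from collagen and other fibroblast markers. They made up 15.8%, 5.13%, 7.10% and 13.4% of the nuclei of ketamine mice 25, 26, 27 and 28 and 0.516% to 2.70% (median 1.48%) of the nuclei of isoflurane mice. The groups did not overlap (exact permutation p = 0.00303, adjusted p = 0.0455 over 15 classes), and this was the only class past 0.05. Mouse 29, which was awake, had 6.70%, so mice 25 to 29 all held more such nuclei than any isoflurane mouse. The 8 other awake mice had 0.420% to 7.96% (median 1.98%), the highest of them above ketamine mice 26 and 27. Of the fibroblast-like nuclei of ketamine mice, 82.2% lay in cluster 18, and of those of isoflurane mice, 93.9% lay in cluster 16. Cluster 18 held 2525 nuclei, 88.3% of them from mice 25 to 29, and made up 2.08% of the nuclei of awake mouse 10. Of the 6 fibroblast markers, 3 were detected in cluster 18 and 6 in cluster 16. The markers among the leading genes were Col1a2, Col1a1 and Bnc2 in cluster 18 and Ranbp3l and Slc6a13 in cluster 16. A second cluster, number 25, led by immunoglobulin genes (Igkc, Ighg2b, Jchain) and by Fos and left unnamed, held 1060 nuclei, 798 of them from mouse 25, in which it made up 12.9% of the nuclei. In the 19 other mice it made up at most 1.17%. The 6 fibroblast markers, all tested and none at 0, summed to 183 to 945 CPM under ketamine, 47.0 to 138 CPM under isoflurane and 196 CPM in mouse 29 (exact permutation p = 0.00303, adjusted p = 0.0788 over 26 measures), and 2 of the 6 were called higher. CA1 pyramidal-like nuclei were 5.31%, 12.2%, 12.3% and 8.04% under ketamine and 11.7% to 20.4% under isoflurane, which did not pass the test (adjusted p = 0.0909). In sums over all nuclei, fewer cells of a type and less RNA per cell cannot be told apart, so the comparison was also made at equal shares, without these clusters and within each class.

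**Figure D1:**
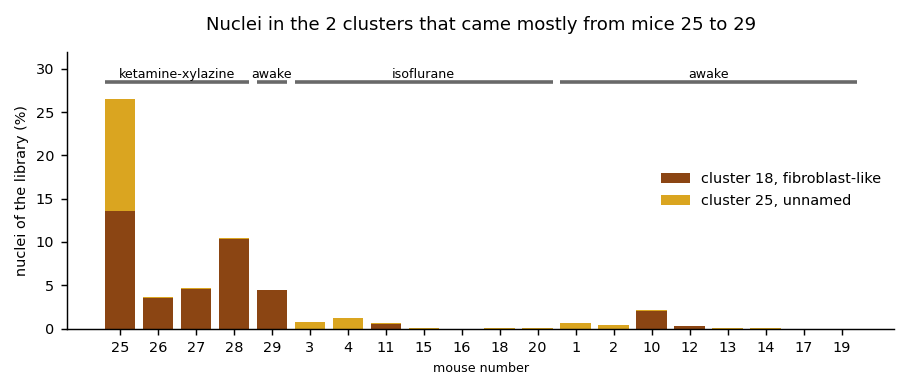
Percent of each library's nuclei (vertical axis) in cluster 18, fibroblast-like, and in cluster 25, unnamed, for the 20 mice ordered by agent (horizontal axis, mouse number). Cluster 18 takes 13.6%, 3.56%, 4.62% and 10.3% of the nuclei of ketamine mice 25 to 28 and 4.43% of awake mouse 29.

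With genotype as a covariate, 19481 genes were tested in the UMI sums of all nuclei, with edgeR's quasi-likelihood test and Benjamini-Hochberg adjustment. At an adjusted p under 0.05, 778 genes (3.99%) were higher and 724 genes (3.72%) were lower under ketamine, 1502 (7.71%) in all, and 5039 had an unadjusted p under 0.05. In 8.82% of the tested genes the ketamine and isoflurane libraries did not overlap. The median log2 fold change over all genes was -0.02. The count rested on the libraries in hand: leaving out mouse 25 left 264 calls, leaving out the 2 clusters left 1153, 1071 of them among the 1502, and leaving out both left 63. With the class shares set equal in every library, 2103 genes were called, 393 higher and 1710 lower. That fit used limma on log2 CPM over 10 named classes, without TMM scaling or a count model. Shares, scaling and test thus changed together, and their parts cannot be told apart. All 20 libraries were also fitted with 5 stretches of mouse numbers as a term (the number term): 1 to 4, 10 to 13, 14 to 17, 18 to 20 and 25 to 29. Mice 10 to 20 are numbered without a gap, so the cuts among them were assumed and no label gives them. With this term, ketamine was tied to the other libraries through mouse 29 alone. In that fit no gene was called (edgeR; 1400 at an unadjusted p under 0.05), and 195 (13.0%) of the 1502 genes had the other sign.

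Set against the awake mice, the called genes were of several kinds. In 509 of the 1502, all 4 ketamine libraries lay outside the range of all isoflurane libraries and of the 8 awake libraries other than mouse 29. Mouse 29 lay with the ketamine libraries in 146 of these (9.72% of called genes, against 1.08% of all tested), with the other mice in 252 (16.8% against 1.86%) and between them in 111 (7.39% against 0.642%). In 53 genes (3.53% against 0.400%) it was the isoflurane libraries that stood apart from ketamine and awake mice alike. The remaining 940 genes (62.6%) showed neither pattern.

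Among the genes higher under ketamine for which mouse 29 lay with the ketamine mice, or between them and the rest, were several RNA-binding and ribosomal protein genes. Rpl10 (chrX:74270812-74273135, plus strand), a protein of the large ribosomal subunit, had 186, 189, 205 and 169 CPM in ketamine mice 25 to 28 and 3.68 to 35.1 CPM (median 4.98) in isoflurane mice. All ketamine libraries lay above all isoflurane libraries, and so did mouse 29 at 138 CPM (log2 fold change 4.35 ± 0.50 SE, adjusted p = 0.00181). Rpl10 was also among the leading genes of clusters 18 and 25, which came mainly from mice 25 to 29. Part of its level in these sums thus lay in those clusters. Hnrnpa1 (chr15:103240432-103246692, plus strand), a splicing regulator that binds pre-mRNA, had 116, 94.7, 93.8 and 79.7 CPM against 20.9 to 47.3 CPM (median 22.3), with mouse 29 at 77.7 CPM and a log2 fold change of 1.86 ± 0.21. Hnrnpa2b1 (chr6:51460932-51469894, minus strand), a related splicing and RNA transport factor, had 417, 343, 322 and 427 CPM against 138 to 217 CPM (median 178), with mouse 29 at 325 CPM and a log2 fold change of 1.12 ± 0.13. In both genes the groups did not overlap and mouse 29 stood above every isoflurane mouse. Ribosomal and Hnrnpa genes have processed copies elsewhere in the genome, so how their reads were shared out is uncertain. With the number term the fitted log2 values of Rpl10, Hnrnpa1 and Rps18 turned to -0.027, -0.00124 and -0.00448. Tecpr2 (chr12:110889264-110972394, plus strand), which takes part in autophagy, had 156, 172, 151 and 169 CPM against 58.4 to 77.3 CPM (median 70.4) (log2 fold change 1.23 ± 0.10 SE, adjusted p = 0.000131). Its level in the other awake mice was 57.4 to 85.0 CPM, and 139 CPM in mouse 29. Dnase1l3 (chr14:7964533-7994573, minus strand), a secreted enzyme that digests DNA, had 35.2, 60.8, 17.0 and 13.9 CPM against 0.0542 to 0.486 CPM (median 0.0993), with mouse 29 at 6.40 CPM, with the smallest adjusted p of all genes (1.15e-06, log2 fold change 7.37 ± 0.34). Dnase1l3 and Tecpr2 thus placed mouse 29 between the ketamine mice and the rest. Dnase1l3 was near the floor under isoflurane and passed the low-count filter mainly through the ketamine libraries, so its rank by p says little. Rps18, of the small ribosomal subunit, had 107, 90.0, 82.9 and 80.6 CPM against 31.0 to 50.5 CPM (median 33.4), with mouse 29 at 80.6 CPM, and Prg4, the joint lubricant lubricin, had 58.8, 96.8, 139 and 7.48 CPM against 1.11 to 3.76 CPM (median 1.76), with mouse 29 at 8.25 CPM.

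A second set was higher under ketamine with mouse 29, except in Abca1, at or near the level of the other mice. Cd44 (chr2:102811141-102901665, minus strand), a receptor for hyaluronan, had 8.75, 19.7, 13.3 and 12.0 CPM under ketamine and 2.44 to 4.57 CPM (median 2.90) under isoflurane. The groups did not overlap, and all awake mice, mouse 29 included at 4.70 CPM, were below the ketamine mice (log2 fold change 2.13 ± 0.25 SE, adjusted p = 0.00181). Rpl5, of the large ribosomal subunit, had 171, 160.0, 187 and 159.8 CPM against 71.4 to 111 CPM (median 86.0), with mouse 29 at 105 CPM. Abca1 (chr4:53030787-53159895, minus strand), the pump that exports cholesterol from cells, had 64.7, 54.2, 50.1 and 54.9 CPM against 20.8 to 28.2 CPM (median 23.1) (log2 fold change 1.27 ± 0.11 SE, adjusted p = 0.000362). Here mouse 29 lay just below the ketamine mice at 48.0 CPM, and the other awake mice had 27.2 to 49.7 CPM. Zar1l also rose, at 1.53, 1.83, 2.25 and 2.68 CPM against 0.269 to 0.547 CPM (median 0.397, awake mouse 29 at 0.925), with awake mice overlapping both groups at 0.203 to 1.56 CPM. At equal class shares its log2 fold change went from 2.27 to -0.032. Zar1l was near the floor under isoflurane and passed the low-count filter mainly through the ketamine libraries, so its call says little.

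Of the genes most clearly lower under ketamine, Mthfd2 (chr6:83305691-83325908, minus strand), a mitochondrial enzyme of folate metabolism, had 6.99, 7.09, 6.08 and 9.23 CPM under ketamine and 13.4 to 24.2 CPM (median 21.1) under isoflurane. All ketamine libraries were below all isoflurane and awake libraries, and mouse 29 lay with the latter at 13.7 CPM (log2 fold change -1.45 ± 0.17 SE, adjusted p = 0.00181). Odc1, the first enzyme of polyamine synthesis, had 13.8, 11.1, 6.42 and 8.58 CPM against 16.8 to 31.4 CPM (median 26.9), and Acad10, of the acyl-CoA dehydrogenase family, 10.5, 12.4, 9.46 and 14.6 CPM against 22.9 to 40.3 CPM (median 30.5). In both the groups did not overlap (log2 fold changes -1.36 ± 0.17 and -1.38 ± 0.17), and mouse 29 stood at 16.4 and 19.8 CPM. Mttp (chr3:138089854-138144968, minus strand), which loads lipid onto lipoproteins, had 31.3, 32.2, 23.8 and 25.0 CPM against 51.3 to 92.4 CPM (median 74.2) (log2 fold change -1.35 ± 0.16 SE, adjusted p = 0.00218). Its awake levels of 27.4 to 59.0 CPM, and 35.2 CPM in mouse 29, reached from the ketamine range into the isoflurane range. Upk3bl, a relative of the uroplakins, had 0.511, 0.473, 0.563 and 1.11 CPM against 4.27 to 19.4 CPM (median 15.8), and mouse 29 was as low as the ketamine mice at 0.308 CPM. The olfactory receptor gene Olfr1322 had 0.114 CPM in mouse 25 and no UMI in mice 26, 27 and 28, against 2.49 to 11.7 CPM (median 7.33) under isoflurane and 0.0771 CPM in mouse 29. Upk3bl and Olfr1322 passed the low-count filter mainly through the isoflurane libraries, so their calls say little. In Cdkl3, a kinase, and Lyrm7, an assembly factor of respiratory complex III, the isoflurane mice stood apart from ketamine and awake mice. They had 56.2 to 61.9 CPM (median 58.2, awake mouse 29 at 42.8) of Cdkl3, against 35.5, 38.4, 37.5 and 41.4 CPM under ketamine and 38.8 to 50.8 CPM in awake mice. Dok3, Dcakd, Cnbd2 and Thnsl1 also fell (log2 fold changes -1.61 ± 0.18, -0.83 ± 0.11, -0.88 ± 0.13 and -1.20 ± 0.18). The genes named here and in the sets of higher genes for their small adjusted p kept their call in each of the 11 fits without 1 library.

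**Figure D2:**
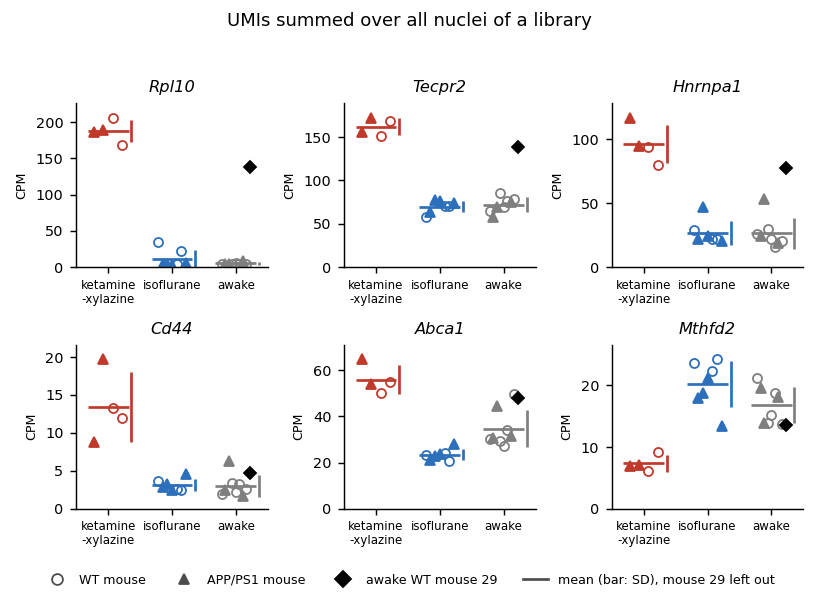
Level (CPM, vertical axes from 0) of 6 genes in the UMIs of all nuclei, 1 point per mouse, with circles for WT, triangles for APP/PS1 and a diamond for awake mouse 29. Horizontal lines are group means and vertical bars 1 SD without mouse 29. Rpl10, Tecpr2 and Hnrnpa1 show mouse 29 near the ketamine mice, and Cd44 and Mthfd2 show it near the isoflurane mice.

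Gene groups were compared by counting their called members against the 3.99% of all genes called higher and 3.72% called lower. Of 37 tested splicing factors, 8 rose and none fell (edgeR; median log2 fold change 0.32, against -0.02 over all genes), among them Hnrnpa2b1, Hnrnpa1, Luc7l3 and Hnrnpm, the last of which lost its call without mouse 25. Luc7l3 had 433, 367, 342 and 359.9 CPM under ketamine and 194 to 259.7 CPM (median 224) under isoflurane, with no overlap, and mouse 29 at 344 CPM. Of 83 cytosolic ribosomal protein genes, 10 rose and none fell (median 0.64). With equal class shares the counts became 6 higher and 2 lower for splicing factors and 7 higher and 2 lower for ribosomal genes. In that setting 393 of all 19481 genes rose and 1710 fell. Without mouse 25 both lists had 3 higher and none lower, where 187 of 19967 genes rose and 77 fell. Without the 2 clusters the ribosomal median was -0.01, with 3 higher and 1 lower. There 545 of 19436 genes rose and 608 fell. Of 96 nuclear genes of oxidative phosphorylation, which encode the respiratory chain, 1 fell (Sdhaf3) and none rose, while 80 had a fitted value below 0 (median -0.58). Without isoflurane mice 3 and 4, the pair with the most mitochondrial UMIs, 4 rose, 3 fell and the median was 0.01. In that fit 831 of all 19148 genes rose and 779 fell, so these counts were near the background. With the number term the median of the oxidative phosphorylation list was 0.12. All 14 tested genes of the neuropeptide list had a fitted value below 0 (median -1.40), and 6 had an unadjusted p under 0.05. The 1 that fell was Calb2, which encodes a calcium-binding protein of interneurons and no neuropeptide, so no neuropeptide gene itself was called by edgeR (DESeq2 called 3 of the list lower). Calb2 was at 0.738, 0.650, 0.676 and 1.94 CPM against 1.25 to 11.9 CPM (median 2.92, awake mouse 29 at 2.39). The groups of Calb2 overlapped, and its call was lost without mouse 3, 4, 15, 18, 25, 26, 27 or 28, that of Sdhaf3 without mouse 25. With the number term the neuropeptide median was 0.26.

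**Figure D3:**
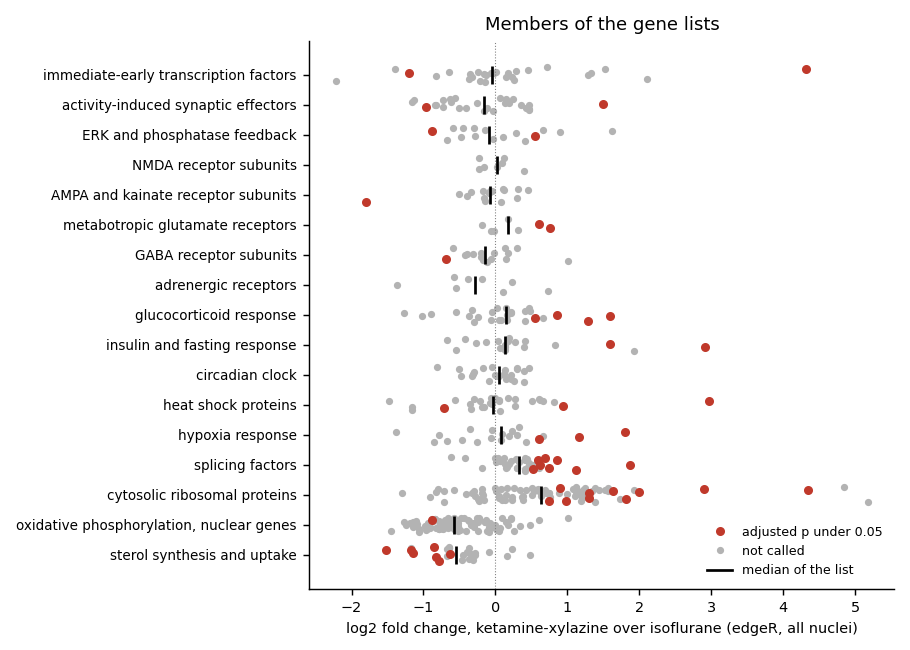
Log2 fold change of ketamine-xylazine over isoflurane (horizontal axis) for every tested member of 17 gene lists (rows) in the sums over all nuclei. Red points are called, grey points are not, and black bars are list medians: splicing factors centre at 0.32 with 8 called, the NMDA receptor, adrenergic receptor and circadian lists have none called.

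Of 28 immediate-early transcription factors, which neuronal activity induces, 1 rose and 1 fell, a share near the 7.71% of all genes called. Fos (chr12:85473890-85477273, plus strand) had 171, 46.5, 7.32 and 20.0 CPM in ketamine mice 25 to 28 and 0.488 to 10.3 CPM (median 1.33) in isoflurane mice. The ketamine values spanned a wide range, that of mouse 27 lay within the isoflurane range, and awake mice had 2.90 to 16.9 CPM, with 31.5 CPM in mouse 29 (log2 fold change 4.31 ± 1.03 SE, adjusted p = 0.0303). Without mouse 25 the log2 fold change was 3.20 at an adjusted p of 0.0867, and the call was also lost without mouse 4, 15, 16, 18, 26 or 28. Part of this Fos lay in nuclei that are not neuronal: in fibroblast-like nuclei of mice 25 to 28 it was at 3402, 1325, 81.2 and 252 CPM, and fibroblast cluster 18 held 3.38%, 1.75%, 2.05% and 4.03% of their UMIs, with another 3.85% in cluster 25 in mouse 25. Without the 2 clusters the log2 fold change of Fos was 3.13 and was not called (adjusted p = 0.0562). Npas4 (chr19:4984355-4990316, minus strand), a factor that only activity induces in neurons, went the other way, with 0.738, 1.06, 0.450 and 0.738 CPM against 1.37 to 2.60 CPM (median 1.52). Both groups were far below the awake mice at 5.27 to 9.64 CPM and mouse 29 at 6.94 CPM (ketamine over isoflurane, log2 fold change -1.21 ± 0.32 SE, adjusted p = 0.0425), a call lost without mouse 15, 16, 18, 25, 26, 27 or 28. Arc, which acts at synapses, was at 1.53, 1.89, 1.69 and 0.462 CPM against 0.940 to 2.73 CPM (median 1.88, awake mouse 29 at 5.01), Nr4a1 at 28.4, 16.7, 16.6 and 15.5 CPM against 14.6 to 36.9 CPM (median 24.1, awake mouse 29 at 34.4), and Homer1, a postsynaptic scaffold, at 102, 99.1, 97.2 and 81.9 CPM against 68.7 to 127 CPM (median 107, awake mouse 29 at 121). None of these passed the test (adjusted p 0.52, 0.572 and 0.696), while awake mice other than 29 had 3.80 to 15.9, 32.1 to 44.3 and 131 to 297 CPM, above most or all anesthetized mice. Bdnf, the neurotrophin, was at 39.0, 26.3, 28.1 and 17.3 CPM against 29.6 to 64.5 CPM (median 39.9, awake mouse 29 at 38.3) (adjusted p = 0.14). Among activity-induced effectors, the chromatin remodeler Baz1a rose (5.68, 5.50, 6.31 and 7.94 CPM against 1.82 to 2.63 CPM (median 2.28, awake mouse 29 at 6.02)) and Nrn1, a neurite growth factor, fell (44.0, 34.0, 33.7 and 28.0 CPM against 47.8 to 109 CPM (median 67.7, awake mouse 29 at 52.5)). In the ERK feedback list, the transcription factor Etv1 fell (-0.89 ± 0.18) and Errfi1, an inhibitor of the EGF receptor, rose (0.55 ± 0.15); Nrn1, Etv1 and Errfi1 each lost the call without 3 to 8 of the single libraries.

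Among the agents' known receptors and channels, the counts called in these sums were near the background of 7.71% of all genes, and so say little about these lists. None of the 7 NMDA receptor subunits, 15 potassium leak, HCN and sodium leak channels or 8 adrenergic receptors was called by edgeR, and 0, 2 and 2 of them had an unadjusted p under 0.05. The NMDA subunit Grin1 was at 379.9, 448, 533 and 408 CPM against 338 to 597 CPM (median 410.0, awake mouse 29 at 392.2), with a log2 fold change of 0.022 ± 0.18. Grin2a was at 2286, 2255, 2342 and 1797 CPM against 1222 to 3129.7 CPM (median 2724, awake mouse 29 at 2742) and Grin2b at 1392, 1321, 1367 and 1160.3 CPM against 968 to 1956 CPM (median 1103, awake mouse 29 at 1808), with groups that overlapped in all 3 genes. Adra2a, the alpha-2A receptor that xylazine activates, was low in both groups, at 0.909, 0.532, 0.450 and 0.554 CPM against 0.488 to 1.44 CPM (median 0.911, awake mouse 29 at 0.617) (adjusted p = 0.403). Of 16 GABA receptor subunits 1 fell: Gabra5 (chr7:57407672-57510059, minus strand), a subunit of extrasynaptic receptors in hippocampal pyramidal cells, had 58.3, 68.6, 68.3 and 59.0 CPM against 84.1 to 137 CPM (median 103). Its groups did not overlap, and the awake mice lay with isoflurane at 95.6 to 169 CPM, mouse 29 at 99.5 CPM (log2 fold change -0.69 ± 0.14 SE, adjusted p = 0.0189); the call was lost without mouse 25, 26 or 28. Of 7 metabotropic glutamate receptors 2 rose. Grm3 had 218, 217, 217 and 247 CPM against 136 to 164 CPM (median 144, awake mouse 29 at 311), and awake mice were like ketamine mice or higher at 202 to 331 CPM, so it was isoflurane that stood apart (log2 fold change 0.60 ± 0.091 SE, adjusted p = 0.00566). Grm8 had 193, 209, 229 and 239 CPM against 99.6 to 183 CPM (median 119, awake mouse 29 at 194) (log2 fold change 0.76 ± 0.13). The phosphodiesterase Pde4b, which breaks down cyclic AMP, showed the pattern of Grm3, with 632, 572, 654 and 716 CPM against 382 to 518 CPM (median 438, awake mouse 29 at 966) and 565 to 759 CPM in awake mice. The Pde4b call was lost without mouse 25, 27 or 28. Cnih2 of AMPA receptors and the dopamine receptor Drd5 fell (-1.79 ± 0.50 and -1.58 ± 0.39), calls that were lost in 9 and 6 of the 11 fits without 1 library.

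Of the lists for bodily state, the glucocorticoid list had 4 of 27 genes higher and none lower (Nfkbia, Pdk4, Net1 and Errfi1). At equal class shares these counts became 1 and 1, where 393 of all 19481 genes rose and 1710 fell. Without mouse 25 they were 0, where 187 of 19967 genes rose and 77 fell. Without the 2 clusters they were 0 and 1, where 545 of 19436 genes rose and 608 fell. Such small counts say little about the list. Nfkbia, the inhibitor of NF-kappaB, had 60.6, 26.2, 35.0 and 41.6 CPM against 9.62 to 28.1 CPM (median 13.3, awake mouse 29 at 21.7), and Pdk4, which limits glucose oxidation, 15.1, 1.95, 2.81 and 4.98 CPM against 1.74 to 2.82 CPM (median 1.95, awake mouse 29 at 9.79), with mouse 25 alone far above isoflurane. Without mouse 25 the log2 fold change of Pdk4 was 0.65 at an adjusted p of 0.284. The classic glucocorticoid targets Sgk1 and Fkbp5 were at 119, 107, 79.7 and 98.8 CPM against 70.2 to 121 CPM (median 99.5, awake mouse 29 at 99.5) and 151, 99.8, 151 and 141 CPM against 57.6 to 153 CPM (median 142, awake mouse 29 at 96.3), with fitted log2 fold changes of 0.051 ± 0.13 and 0.14 ± 0.25 whose sign did not hold without mouse 3. Txnip (chr3:96557957-96561883, plus strand), which rises with glucose, had 88.1, 49.5, 30.6 and 92.7 CPM against 5.24 to 22.1 CPM (median 6.56), with no overlap and mouse 29 within the ketamine range at 46.3 CPM (log2 fold change 2.91 ± 0.40 SE, adjusted p = 0.00442). Of 20 hypoxia-responsive genes 3 rose: Vegfa, the vascular growth factor, had 31.0, 30.1, 13.4 and 34.1 CPM against 7.61 to 17.3 CPM (median 11.6), Adm, the dilator adrenomedullin, 3.29, 3.84, 3.04 and 1.48 CPM against 0.224 to 1.34 CPM (median 0.844, awake mouse 29 at 1.77), and Zfp395 a log2 fold change of 0.60 ± 0.16. Mouse 27 lay within the isoflurane range of Vegfa, and mouse 29 at 25.7 CPM. Among 29 heat shock proteins, Hspa5, the chaperone of the endoplasmic reticulum, rose (95.2, 117, 119 and 204 CPM against 33.3 to 102 CPM (median 63.5, awake mouse 29 at 117)), Dnajb4 fell (-0.72 ± 0.16), and Hspa1b, whose near copy Hspa1a makes its counts uncertain, rested on mouse 25, with an adjusted p of 0.402 without it. The cold-inducible Rbm3 fell, at 30.0, 28.1, 15.0 and 21.7 CPM against 30.9 to 106 CPM (median 65.0), with mouse 29 at 26.3 CPM among the ketamine mice (log2 fold change -1.41 ± 0.34 SE, adjusted p = 0.0315), and Cirbp was at 26.9, 22.6, 13.2 and 19.4 CPM against 16.0 to 54.5 CPM (median 38.0, awake mouse 29 at 19.1) (adjusted p = 0.168). None of 23 circadian clock genes was called, and 6 had an unadjusted p under 0.05; Per1 was at 53.0, 26.1, 28.1 and 24.5 CPM against 15.3 to 36.4 CPM (median 20.6, awake mouse 29 at 17.9). Adm, Vegfa, Zfp395, Nfkbia, Net1, Hspa5, Dnajb4 and Rbm3 each lost the call without 4 or more of the single libraries, always including mouse 25.

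Further lists held called genes of other kinds. The nuclear noncoding RNA Neat1, the scaffold of paraspeckles, had 178, 149, 176 and 189.7 CPM against 64.6 to 144 CPM (median 72.3, awake mouse 29 at 104) (log2 fold change 0.94 ± 0.22). Gm42418 and AY036118, overlapping models on chromosome 17 whose reads cannot be told apart, had 14760.1, 2736, 7257 and 1672 CPM and 3598, 735, 1068 and 354 CPM against 446 to 1341 CPM (median 625, awake mouse 29 at 1692) and 137 to 482 CPM (median 224, awake mouse 29 at 361), with mouse 25 highest in both. Of the 13 genes of the mitochondrial genome, 1 was called, mt-Cytb at 26.9, 29.1, 22.7 and 47.9 CPM against 32.8 to 1846 CPM (median 112, awake mouse 29 at 21.3), where the highest isoflurane library was mouse 3. The adhesion genes Ptprd and Lrrc4c rose (0.52 ± 0.13 and 0.42 ± 0.12), as did Prkacb, a catalytic subunit of protein kinase A (0.48 ± 0.13). At equal class shares Lrrc4c turned to -0.019. In the mTOR list Rictor rose and Eif4ebp2 and Castor1 fell (0.51 ± 0.12, -0.68 ± 0.16 and -1.38 ± 0.35). In the inflammation and unfolded protein lists, C3 rose and Creld2 fell (1.87 ± 0.45 and -1.16 ± 0.32), and C3 was at 3.58, 0.887, 0.676 and 0.831 CPM with mouse 25 far above the rest. Of the 12 genes named here, Gm42418 alone kept its call in every fit without 1 library, and the others lost it in 2 to 9 of the 11 fits. Of 26 genes of sterol synthesis and uptake, a list chosen after values had been seen, 7 fell and none rose (median -0.54), and 13 fell at equal class shares, where 1710 of all genes fell in place of 724.

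The comparison was repeated within 10 named classes of nuclei, with each class named from its marker genes. The share of genes called was 8.08% in astrocyte-like nuclei (929 genes), 4.80% in CA1 pyramidal-like nuclei (668), 2.73% in dentate granule-like (386), 2.65% in inhibitory (304), 2.77% in oligodendrocyte-like (249), 1.92% in subiculum and cortex (175), 1.88% in CA3 (223), 1.90% in microglia-like (48) and 0.221% in oligodendrocyte precursor-like nuclei (14). In fibroblast-like nuclei it was 43.4% (2588), where the agents' nuclei lay in different clusters, and these calls are not described further. Other classes were split as well: clusters 8 (dentate granule), 12 (oligodendrocyte), 13 (astrocyte) and 17 (CA1) drew 94.2%, 96.6%, 92.4% and 95.9% of their nuclei from mice 1 to 4, isoflurane mice 3 and 4 among them. Without these 2 mice the classes had 459, 409, 851 and 859 calls. In the 9 classes outside fibroblasts, 0.174% to 4.50% of tested genes were called higher and 0.0475% to 3.58% lower. Rpl10 was called higher in 9 of 9 of them, with log2 fold changes of 2.43 to 4.00, and Hnrnpa2b1 in 6 of 9. Abca1 rose in 5 of 8 classes, Tecpr2 in 5 of 9, and Ago1, a core protein of microRNA silencing, in 5 of 8. Mttp fell in 7 of 8 classes and Mthfd2 in 4 of 7. The totals are the classes in which a gene passed the low-count filter. Dnase1l3 was tested in 4 classes and Upk3bl in 6. Each was low under 1 agent and passed the filter mainly through the other, so their counts over classes say little. Fos was called higher in 4 of 6 classes: CA1, CA3, dentate granule and inhibitory nuclei. Each of these calls was lost without mouse 25 (edgeR adjusted p 0.132, 0.0857, 0.119 and 0.153). Fos was also low under isoflurane in CA1, CA3 and dentate granule nuclei, so its count over classes says little as well. With the number term in the class fits, 8.03% to 29.8% of the called genes had the other sign where over 200 genes had been called.

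RNA of fibroblasts was also counted in other nuclei. Col1a2, a collagen gene of fibroblasts, was present in the microglia-like nuclei of ketamine mice at 197, 105, 280.0 and 713 CPM, against 0 to 6.85 CPM (median 0) under isoflurane and 98.2 CPM in mouse 29. The fibroblast-class level of each gene, scaled by the ratio of Col1a2 in a class to Col1a2 in fibroblasts, reached at least 50% of the difference between the agents in 62 of 517 genes called higher in astrocyte-like nuclei, 17 of 302 in CA1, 35 of 205 in dentate granule, 9 of 192 in inhibitory, 45 of 123 in oligodendrocyte-like and 15 of 29 in microglia-like nuclei. Fn1, Col1a2 and Vim, the named genes called higher in microglia-like nuclei, are all strongly expressed by fibroblasts. In ketamine mice 25 to 28, Col1a2 in CA1 nuclei was at 1.01%, 0.636%, 1.91% and 0.960% of its fibroblast level, Fos at 0.821%, 0.827%, 1.61% and 1.75%, and Rpl10 at 0.923%, 1.20%, 2.48% and 3.18%. In dentate granule nuclei Col1a2 was at 1.94%, 0.930%, 3.42% and 1.73%, Fos at 1.19%, 1.31%, 4.12% and 2.35%, and Rpl10 at 2.13%, 1.79%, 3.39% and 4.69%. In inhibitory nuclei Col1a2 was at 0.803%, 0.645%, 1.91% and 0.908%. There Fos was at 0.801%, 1.21%, 1.91% and 4.27%, and Rpl10 at 1.20%, 1.11%, 2.48% and 3.70%. For Fos and Rpl10 in these classes, RNA of the class itself and fibroblast RNA counted in it cannot be told apart by these shares. In oligodendrocyte-like nuclei Rpl10 was at 3.82%, 5.81%, 11.6% and 15.1%, and Col1a2 at 6.39%, 4.68%, 10.1% and 8.27%. For Rpl10 such shares do not settle the matter in the other classes either. In astrocyte-like nuclei Fos stood at 4.18%, 9.80%, 29.8% and 12.5% and Col1a2 at 5.42%, 2.23%, 6.71% and 4.77%. In microglia-like nuclei Fos stood at 9.59%, 10.6%, 43.1% and 21.4% and Col1a2 at 7.11%, 3.40%, 12.8% and 10.8%. These microglial shares rest on few UMIs: in mouse 27 Fos was at 35.0 CPM, in a class holding 1.64% of the nuclei. In CA3 nuclei Fos stood at 0.311%, 0.463%, 6.39% and 3.68% and Col1a2 at 1.11%, 0.375%, 1.50% and 1.06%.

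In astrocyte-like nuclei, cells that clear glutamate and supply neurons with lipid, the named changes were wide apart. Eftud2, a GTPase of the spliceosome, had 297, 406, 425 and 196 CPM in ketamine mice 25 to 28 and 31.8 to 78.7 CPM (median 61.1) in isoflurane mice. All awake mice were low, at 35.7 to 59.6 CPM and 42.1 CPM in mouse 29 (log2 fold change 2.51 ± 0.25 SE, adjusted p = 0.000248). Neat1 had 834, 865, 808 and 741 CPM against 161 to 343 CPM (median 279), with mouse 29 at 286 CPM. In both genes the ketamine mice stood alone above isoflurane and awake mice, mouse 29 included, as in 1.55% of the genes tested in the class with either direction. Ketamine and isoflurane alone did not overlap in 8.68%. Gfap, the filament protein that reactive astrocytes raise, had 805, 509.7, 485 and 350.1 CPM against 138 to 272 CPM (median 194) and 206 CPM in mouse 29 (log2 fold change 1.37 ± 0.25 SE, adjusted p = 0.00782). Vegfa had 224, 223, 125 and 216 CPM against 64.1 to 117 CPM (median 87.5) and 167 CPM in mouse 29, and Abca1 267, 242, 242 and 242 CPM against 86.2 to 147 CPM (median 93.9, awake mouse 29 at 204). The amino acid transporter Slc43a2 went down, with 43.0, 17.3, 32.2 and 26.1 CPM against 101 to 167 CPM (median 136) and 29.2 CPM in mouse 29, and so did Radil (8.83, 5.77, 12.1 and 8.24 CPM against 30.2 to 48.4 CPM (median 44.1, awake mouse 29 at 12.9)). Each of these genes kept its call in all fits without 1 library.

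The glial receptor Grm3 in astrocyte-like nuclei had 597, 681, 506 and 592 CPM under ketamine and 264 to 609.6 CPM (median 293, awake mouse 29 at 1347) under isoflurane, with overlapping groups. Both lay below the awake mice, at 781 to 1601 CPM (log2 fold change 0.82 ± 0.22 SE, adjusted p = 0.036). Nr3c1, the glucocorticoid receptor, had 174, 186, 159 and 157 CPM against 94.8 to 151 CPM (median 111, awake mouse 29 at 197), and the clock activator Arntl 106, 139, 157 and 89.2 CPM against 43.9 to 86.4 CPM (median 69.0, awake mouse 29 at 99.3), both without overlap. Sik1, a kinase induced by cyclic AMP, had 34.2, 24.0, 16.1 and 11.0 CPM against 2.05 to 12.6 CPM (median 3.16, awake mouse 29 at 3.50). Txnip and Hspa5 rose as well (0.96 ± 0.24 and 0.88 ± 0.23). These 6 calls were lost in 3 or more of the fits without 1 library. Of 37 splicing factors in this class, 9 rose and 1 fell, and of 12 genes of the mitochondrial genome, 5 fell, against 4.50% of all genes higher and 3.58% lower. Isoflurane mice 3 and 4 had 1.78% and 0.939% of their UMIs in mitochondrial genes, against 0.0437% to 0.336% in the other isoflurane mice, and without them 3 of these 5 genes kept the call (mt-Co1, mt-Cytb and mt-Nd1). Their log2 fold changes were then -1.79, -2.37 and -1.50. With all libraries those in the 9 classes outside fibroblasts were -3.19, -3.63 and -3.21 or lower.

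Of 25 genes of sterol synthesis and uptake tested in astrocyte-like nuclei, a list chosen after values had been seen, 9 fell and none rose (edgeR), against 3.58% of all genes called lower. Their median log2 fold change was -0.59, against -0.03 over all genes. The pathway runs from acetyl-CoA through mevalonate and farnesyl pyrophosphate to lanosterol and on to cholesterol, and most of its genes are switched by SREBP factors when cell cholesterol is low. The called members were Hmgcs1, Mvk, Mvd and Fdps of the mevalonate arm, Lss, Msmo1, Hsd17b7 and Ebp of the sterol arm, and Stard4, a sterol carrier. Promoter sequence from RefSeq (GRCm38.p6) was found for 7 of these 9 genes, and not for Fdps and Stard4. The sterol regulatory element TCACNCCAC, searched on both strands with N for any base, was in the 300-base promoter of 1 of them, Hmgcs1, and in 1.24% of 32851 promoters. CCAAT, bound by NF-Y, was in 7 of 7 and in 37.4% of all promoters, and CACNTG, an E-box, in 3 of 7 and in 44.9%. Sterol genes that were not called were not counted apart, so these shares do not compare called with uncalled genes. The 250 bases upstream of the start of 3 genes, 1 for the mevalonate arm and 2 for the sterol arm, are shown 5′ to 3′ on the gene's strand, with matches to TCACNCCAC and CCAAT on either strand in capitals. Hmgcs1 lies at chr13:119690101-119690350 on the plus strand, Lss at chr10:76531355-76531604 on the plus strand and Msmo1 at chr8:64733579-64733828 on the minus strand.
Hmgcs1: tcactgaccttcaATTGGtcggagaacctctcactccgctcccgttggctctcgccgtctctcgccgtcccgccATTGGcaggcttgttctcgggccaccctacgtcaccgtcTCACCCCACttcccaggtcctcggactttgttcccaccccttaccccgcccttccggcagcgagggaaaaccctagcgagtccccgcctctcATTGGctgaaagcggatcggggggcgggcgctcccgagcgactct
Lss: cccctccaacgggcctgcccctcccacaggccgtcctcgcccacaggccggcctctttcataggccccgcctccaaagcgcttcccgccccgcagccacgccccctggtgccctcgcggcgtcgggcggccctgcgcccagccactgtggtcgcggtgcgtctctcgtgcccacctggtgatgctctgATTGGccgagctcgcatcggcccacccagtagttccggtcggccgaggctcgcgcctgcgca
Msmo1: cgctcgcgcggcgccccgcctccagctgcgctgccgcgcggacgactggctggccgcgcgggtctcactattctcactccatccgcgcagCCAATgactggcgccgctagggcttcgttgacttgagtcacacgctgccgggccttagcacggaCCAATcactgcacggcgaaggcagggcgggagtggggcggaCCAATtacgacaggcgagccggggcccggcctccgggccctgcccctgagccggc

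Fdps, which makes farnesyl pyrophosphate, had 28.7, 33.7, 68.5 and 34.3 CPM in ketamine mice 25 to 28 and 90.3 to 176 CPM (median 118, awake mouse 29 at 25.7) in isoflurane mice. The groups did not overlap, and the 8 awake mice other than 29 lay with ketamine at 32.1 to 70.1 CPM (log2 fold change -1.72 ± 0.24 SE, adjusted p = 0.00227). Lss, which closes the sterol rings, had 23.2, 22.1, 30.2 and 34.3 CPM against 44.8 to 91.8 CPM (median 50.7, awake mouse 29 at 26.9) and 7.91 to 25.0 CPM in awake mice. Hmgcs1, the HMG-CoA synthase whose upstream sequence holds the sterol element, had 160.0, 203, 191 and 148 CPM against 242 to 336 CPM (median 268, awake mouse 29 at 84.1) and 91.8 to 171 CPM in awake mice. Msmo1, a sterol demethylase, had 328, 302, 419 and 294 CPM against 459 to 1011 CPM (median 636, awake mouse 29 at 241) and 169.8 to 429 CPM in awake mice. In each of these 4 genes all isoflurane libraries were above all ketamine libraries and above all awake libraries, where 0.635% of the genes tested in the class had isoflurane apart from both. Stard4 had 15.4, 20.2, 30.2 and 17.8 CPM against 30.8 to 85.7 CPM (median 40.0, awake mouse 29 at 17.5) and 3.59 to 17.4 CPM in awake mice. Pcyt2, which makes phosphatidylethanolamine and is outside the list, followed the same order, with 196, 142, 242 and 299 CPM against 510.0 to 877 CPM (median 633) and 284 CPM in mouse 29 (log2 fold change -1.70 ± 0.20 SE, adjusted p = 0.000711). Fdps, Lss and Pcyt2 kept the call in every fit without 1 library, and the other sterol genes lost it in 3 to 8 of these fits. Mttp fell too, at 67.3, 55.8, 40.3 and 34.3 CPM against 56.4 to 219 CPM (median 96.9, awake mouse 29 at 61.9), with overlapping groups.

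**Figure D4:**
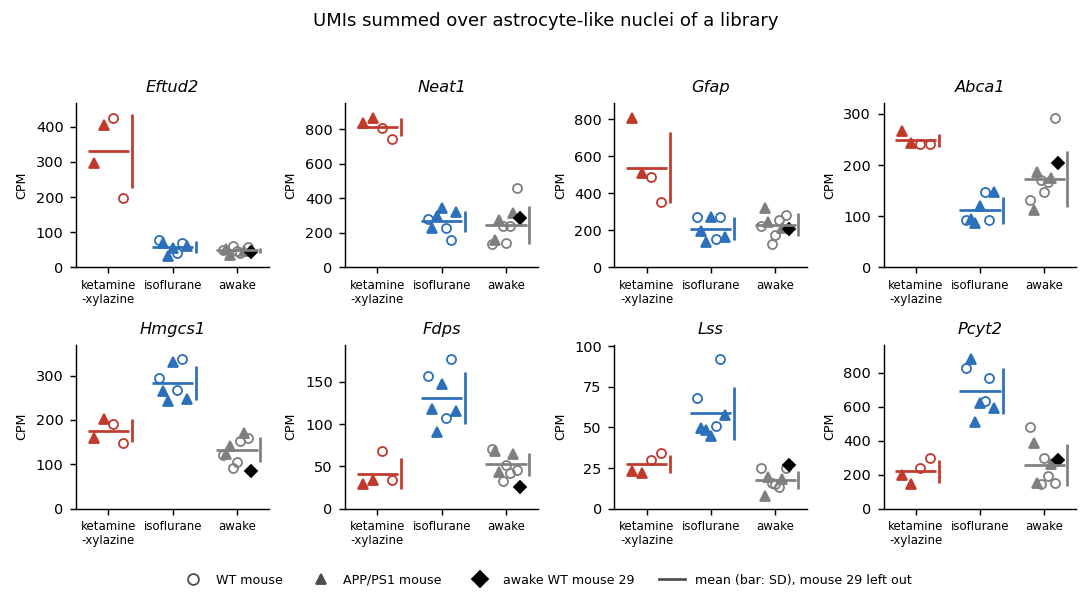
Level (CPM, vertical axes from 0) of 8 genes in the UMIs of astrocyte-like nuclei, 1 point per mouse, with circles for WT, triangles for APP/PS1 and a diamond for awake mouse 29. Lines are means and bars 1 SD without mouse 29. Ketamine mice stand above the others in Eftud2, Neat1 and Gfap, and isoflurane mice stand above ketamine mice in Hmgcs1, Fdps, Lss and Pcyt2.

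In CA1 pyramidal-like nuclei, the output neurons of the hippocampus, most members of the activity and growth factor lists were not called, and those called were lower under ketamine apart from Fos. Of 21 immediate-early factors 1 rose and 2 fell (median log2 fold change -0.62, against -0.04 over all genes), of 22 effectors 4 fell, and of 12 ERK feedback genes 2 fell, against 2.17% of all genes called higher and 2.63% called lower. Ketamine and isoflurane did not overlap in 7.62% of the genes tested in these nuclei. Fos had 27.9, 11.0, 1.31 and 4.42 CPM against 0.201 to 2.66 CPM (median 0.570, awake mouse 29 at 14.7), with mouse 27 inside the isoflurane range, and awake mice had 4.28 to 17.0 CPM (adjusted p = 0.0316; 0.132 without mouse 25). Nr4a2, an orphan nuclear receptor induced by activity, had 27.9, 21.9, 18.9 and 19.9 CPM against 31.4 to 47.1 CPM (median 39.3, awake mouse 29 at 48.5), and Crem, of the cyclic AMP response, 13.2, 16.1, 12.4 and 17.7 CPM against 20.9 to 30.2 CPM (median 26.7, awake mouse 29 at 18.6). In both the groups did not overlap. Bdnf had 24.9, 14.6, 16.3 and 9.57 CPM against 25.7 to 56.4 CPM (median 45.3, awake mouse 29 at 39.2) and its receptor Ntrk2 307, 252, 259 and 294 CPM against 289 to 622 CPM (median 479, awake mouse 29 at 419.9) (log2 fold changes -1.31 ± 0.28 and -0.70 ± 0.18). Pcsk1, a protease that processes prohormones, had 5.08, 6.21, 2.61 and 6.62 CPM against 10.9 to 38.5 CPM (median 16.0, awake mouse 29 at 16.6). Spry2, an inhibitor of the ERK pathway, had 3.55, 4.02, 4.57 and 4.42 CPM against 9.41 to 15.9 CPM (median 12.6, awake mouse 29 at 11.7) (log2 fold change -1.60 ± 0.24 SE, adjusted p = 0.0102). Bdnf, Pcsk1 and Spry2 separated the groups, and awake mice were at the isoflurane level or higher, with Spry2 at 11.7 to 23.3 CPM. Npas4 (1.02, 2.19, 0 and 2.21 CPM against 2.66 to 5.15 CPM (median 3.67, awake mouse 29 at 19.6), awake 10.4 to 19.5 CPM), Arc and Homer1 did not pass the test between the agents (adjusted p 0.114, 0.667 and 0.414).

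Some receptor genes were called in the same nuclei. Gabra5 had 111, 87.0, 98.7 and 87.6 CPM against 116 to 194 CPM (median 167, awake mouse 29 at 152) without overlap (log2 fold change -0.70 ± 0.14), and Adrb1, the beta-1 adrenergic receptor, 13.2, 12.4, 17.6 and 18.4 CPM against 21.7 to 28.7 CPM (median 22.8, awake mouse 29 at 24.0). Grm8 and the kainate receptor subunit Grik2 rose (0.59 ± 0.12 and 0.41 ± 0.11). Rbm3 was lower at 27.9, 27.0, 15.7 and 14.7 CPM against 28.3 to 108 CPM (median 50.5, awake mouse 29 at 29.4), Irs2, a docking protein of the insulin receptor, was lower at 5.59, 4.39, 4.57 and 8.83 CPM against 9.53 to 12.9 CPM (median 12.2, awake mouse 29 at 6.85), and Txnip higher at 15.7, 15.4, 13.1 and 16.9 CPM against 0.401 to 11.5 CPM (median 1.15, awake mouse 29 at 8.81). All of these CA1 calls, from Fos to Txnip, were lost without at least 2 of the single libraries, in each case including mouse 26 or 27. The genes with the smallest adjusted p were steadier and kept their call in every such fit. Ago1 had 98.0, 93.2, 106 and 72.9 CPM against 31.9 to 46.2 CPM (median 35.6, awake mouse 29 at 58.2) and Ppp1r16b 80.7, 74.2, 83.6 and 66.2 CPM against 34.4 to 43.5 CPM (median 39.1, awake mouse 29 at 40.1), with no overlap in either. Hsd17b12, an enzyme of fatty acid elongation, had 8.13, 5.85, 4.57 and 5.89 CPM against 17.4 to 29.3 CPM (median 23.7, awake mouse 29 at 20.6), and Mthfd2 5.59, 6.21, 7.84 and 5.15 CPM against 14.9 to 26.4 CPM (median 22.3, awake mouse 29 at 10.3) (log2 fold changes -1.91 ± 0.21 and -1.79 ± 0.21). In Ccdc7b the isoflurane mice stood above both ketamine mice (13.7, 21.9, 17.6 and 21.3 CPM against 40.0 to 61.6 CPM (median 55.6, awake mouse 29 at 10.8)) and awake mice (10.1 to 30.0 CPM). Such a pattern was found in 0.610% of the genes tested in the class.

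**Figure D5:**
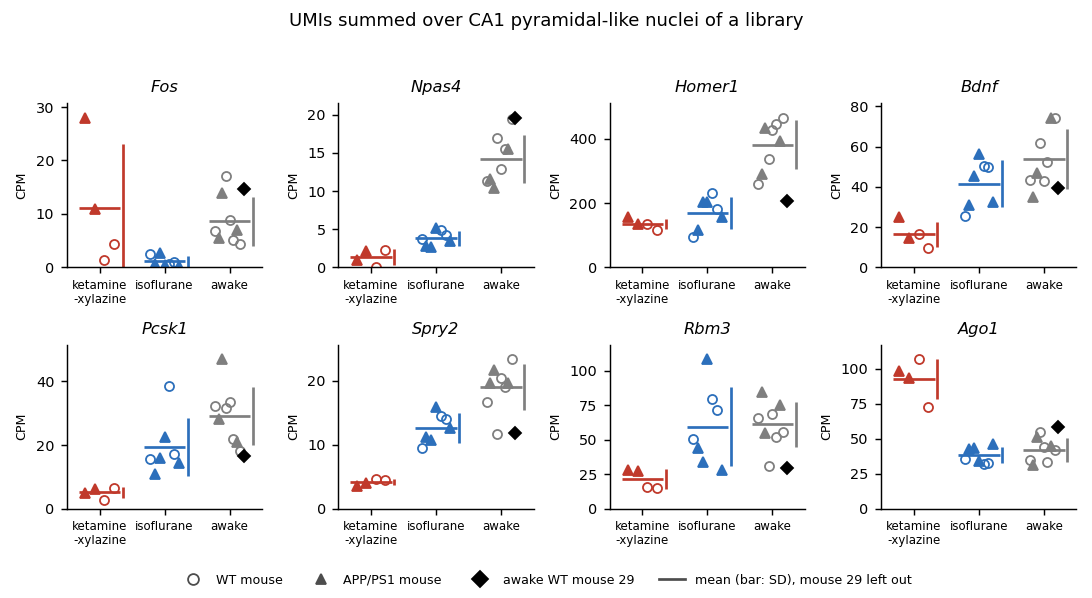
Level (CPM, vertical axes from 0) of 8 genes in the UMIs of CA1 pyramidal-like nuclei, 1 point per mouse, with circles for WT, triangles for APP/PS1 and a diamond for awake mouse 29. Lines are means and bars 1 SD without mouse 29. Pcsk1 and Spry2 are lowest under ketamine, Npas4 and Homer1 are low under both agents, and Fos is highest in mouse 25 among anesthetized mice.

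In CA3 pyramidal-like nuclei, 0.925% of the tested genes rose and 0.950% fell, and the agents did not overlap in 6.04%. Fos had 10.6, 6.13, 5.19 and 9.27 CPM against 0 to 0.683 CPM (median 0.371, awake mouse 29 at 6.44), and here all 4 ketamine mice were above all isoflurane mice (log2 fold change 4.50 ± 0.60 SE, adjusted p = 0.00665). Awake mice had 1.27 to 8.64 CPM, and without mouse 25 the adjusted p was 0.0857. These levels were low in every group and near the floor under isoflurane. In mice 25 and 26 Fos stood at 0.311% and 0.463% of its fibroblast level, and Col1a2 at 1.11% and 0.375%. For these 2 mice, Fos of CA3 nuclei and fibroblast RNA counted in them cannot be told apart. In mice 27 and 28 Fos stood at 6.39% and 3.68%, and Col1a2 at 1.50% and 1.06%. Kcnh7, a potassium channel of the ERG family, had 199, 144, 88.2 and 72.7 CPM against 26.7 to 64.2 CPM (median 39.4) and 129.6 CPM in mouse 29. Ago1 had 105, 92.0, 84.7 and 74.2 CPM against 32.5 to 46.6 CPM (median 41.5, awake mouse 29 at 57.9), Catspere2 84.7, 72.3, 72.6 and 71.1 CPM against 128 to 163 CPM (median 138, awake mouse 29 at 91.8), and Ints3, of the Integrator complex, 26.0, 36.8, 29.4 and 30.9 CPM against 56.4 to 84.1 CPM (median 64.8, awake mouse 29 at 46.7). Each of these separated the groups, and Catspere2 lost its call without mouse 27, Ints3 without mouse 25 or 27. The leak channel Kcnk2, a member of the family that isoflurane opens, had 125, 89.5, 105 and 69.6 CPM against 37.7 to 78.6 CPM (median 48.7, awake mouse 29 at 66.0), with overlap (log2 fold change 0.88 ± 0.19), and Etv1 0.963, 5.52, 10.4 and 27.8 CPM against 31.2 to 61.7 CPM (median 36.6, awake mouse 29 at 61.2) (-2.11 ± 0.44). Etv1 lost the call without mouse 15, 25, 26 or 27, and Kcnk2 without mouse 15, 16, 18, 25, 26 or 27.

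In dentate granule-like nuclei, those of the cells that receive the cortical input, 1.45% of the tested genes rose and 1.28% fell, and the agents did not overlap in 6.38%. Dnase1l3, Ago1 and the helicase Dhx36 rose and Upk3bl, Tesc and the lysosomal channel Tmem175 fell. Dhx36 had 205, 159.7, 164 and 147 CPM against 73.0 to 112 CPM (median 97.0, awake mouse 29 at 141), and Tmem175 55.6, 64.0, 70.2 and 77.0 CPM against 99.2 to 132 CPM (median 125) with mouse 29 at 116 CPM. Fos had 40.4, 17.4, 3.34 and 5.93 CPM against 0.185 to 3.67 CPM (median 0.831, awake mouse 29 at 16.5), with mouse 27 inside the isoflurane range. Klf2, a zinc finger factor, had 1.03, 2.44, 1.91 and 1.48 CPM against 4.90 to 9.83 CPM (median 5.62, awake mouse 29 at 2.69), and Acan, the core of perineuronal nets, 6.69, 8.70, 8.12 and 6.67 CPM against 2.41 to 3.95 CPM (median 3.31, awake mouse 29 at 1.34). The groups of Klf2 and Acan did not overlap, and in Acan awake mice were lowest, at 0.718 to 2.17 CPM. Rbm3 fell and Grm3 and Txnip rose (-1.28 ± 0.28, 0.65 ± 0.11 and 2.60 ± 0.63). Dnase1l3 alone among these kept its call in every fit without 1 library; Ago1, Dhx36 and Upk3bl lost it without mouse 25 or 27, and the others without at least 3 libraries.

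In inhibitory nuclei, 1.67% of the tested genes rose, 0.975% fell and 5.66% had no overlap between the agents. The called receptor genes were higher under ketamine. Gria2, an AMPA receptor subunit, had 1586, 1302, 1168 and 1187 CPM against 707 to 1023 CPM (median 912), Grm7 1223, 1024, 1049.9 and 989 CPM against 525 to 819 CPM (median 642) and the GABA receptor subunit Gabrb1 686, 567, 488 and 556 CPM against 342 to 498 CPM (median 377). Ketamine lay above isoflurane in the first pair and nearly so in Gabrb1, and mouse 29 had 1519, 1132 and 760.2 CPM, within or above the ketamine range. Grik4 and the serotonin receptor Htr4 rose as well (0.81 ± 0.18 and 0.95 ± 0.23). Dock4, a guanine exchange factor, had 788, 706, 787 and 661 CPM against 310.0 to 515 CPM (median 379), the bicarbonate transporter Slc4a4 227, 162, 181 and 151 CPM against 47.1 to 96.2 CPM (median 74.0), and Rasgrp1, an activator of Ras, 71.0, 46.5, 44.9 and 31.1 CPM against 10.9 to 20.9 CPM (median 18.1). Mouse 29 again lay within the ketamine range, at 741, 182 and 62.6 CPM. The other awake mice are not given for these genes. Of the 304 called genes of the class, 19 (6.25%, against 0.452% of tested genes) had ketamine and mouse 29 apart from all other mice. In 12 (3.95% against 0.200%) the isoflurane mice stood apart from ketamine and awake mice alike. Sox11, a factor of young neurons, and the ubiquitin ligase Mylip fell (-1.64 ± 0.26 and -1.90 ± 0.31). With the number term, 79 of the 304 genes called in this class (26.0%) had the other sign, Gria2, Grik4, Grm7, Gabrb1 and Htr4 among them, and every named gene of the class lost its call without mouse 25 or without mouse 27.

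In oligodendrocyte-like nuclei, of the myelin-forming cells, 1.37% of the tested genes rose, 1.40% fell and 7.28% had no overlap between the agents. Ptpn13, a phosphatase, had 58.6, 81.7, 117 and 60.2 CPM against 8.96 to 20.8 CPM (median 13.7, awake mouse 29 at 44.8), and Atp13a3, a polyamine transporter, 111, 93.9, 91.4 and 94.4 CPM against 30.5 to 42.1 CPM (median 39.8, awake mouse 29 at 72.5). Cerk, the ceramide kinase, had 119, 135, 124 and 247 CPM against 464 to 648 CPM (median 532, awake mouse 29 at 186), and Tex2 113, 86.3, 102 and 132 CPM against 248 to 301 CPM (median 255, awake mouse 29 at 161). In Cerk and Tex2 the awake mice, at 184 to 421 and 115 to 218 CPM, lay below the isoflurane mice. Txnip had 68.4, 90.8, 67.4 and 132 CPM against 1.89 to 32.5 CPM (median 9.60) and 88.3 CPM in mouse 29, and Hmgcs1 19.5, 34.8, 13.1 and 26.0 CPM against 43.4 to 119.8 CPM (median 62.7, awake mouse 29 at 23.7). The first 5 genes kept their call in every fit without 1 library, and Hmgcs1 lost it without mouse 15, 18, 25, 27 or 28. Prdm6 and Pcbd2 were called too (5.79 ± 0.65 and -1.64 ± 0.23).

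In microglia-like nuclei, of the resident immune cells, 1.15% of the tested genes rose, 0.751% fell and 5.89% had no overlap between the agents. Selplg, a ligand of selectins, had 320.1, 211, 280.0 and 525 CPM against 741 to 1028 CPM (median 871), and Upp2, a uridine phosphorylase, 18.5, 70.3, 52.5 and 26.9 CPM against 148 to 304 CPM (median 195). Both separated the groups, and mouse 29 lay with isoflurane at 751 and 161 CPM. In oligodendrocyte precursor-like nuclei the shares were 0.174%, 0.0475% and 2.66%. Sox2ot, a noncoding RNA that overlaps Sox2, had 3274, 3183, 3767 and 2849 CPM against 1483 to 2085 CPM (median 1979.7, awake mouse 29 at 4051), with awake mice at 2143 to 4056 CPM, and the clock output factor Tef fell (-1.30 ± 0.22). In subiculum and cortex nuclei they were 0.856%, 1.06% and 4.72%. Trhde, which degrades thyrotropin-releasing hormone, had 306, 174, 216 and 200.4 CPM against 10.7 to 89.7 CPM (median 58.4) and 222 CPM in mouse 29, and Mthfd2 10.1, 3.23, 2.22 and 7.03 CPM against 22.4 to 40.5 CPM (median 26.7, awake mouse 29 at 17.1). All of these calls were lost in 2 to 5 of the fits without 1 library, mouse 25 and mouse 27 always among them.

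By the labelled genotype, 74 genes (0.369%) were called between the agents among WT mice, 67 higher and 7 lower, and 27 genes (0.135%) among APP/PS1 mice, 18 higher and 9 lower. Both comparisons are small, with 2 ketamine libraries each. Of these, 12 genes were called in both, which is 16.2% of the WT list and 44.4% of the APP/PS1 list, and no gene of either list had the other sign in the other genotype. The difference between the genotypes in the agent effect was itself tested, and no gene was called by edgeR (632 at an unadjusted p under 0.05, smallest adjusted p 0.674), while DESeq2 called 6. Since Prnp did not separate the labelled genotypes of the isoflurane mice, and the design text of the series gives 4 WT and 3 APP/PS1 isoflurane mice in place of the 3 and 4 labelled, these counts hold only for the libraries as labelled.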

How the data were processed

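Nuclei of 1 hippocampus preparation per mouse were counted by droplet RNA sequencing. For each library the authors deposited a table of UMI counts, in whole numbers and not normalized. The submitters' processing notes name Cell Ranger 5.0.0 and mm10, and the methods name introns, ambient RNA removal with CellBender and a minimum of 200 genes per nucleus. Whether these counts were taken before or after CellBender is not given in the sources used here. The methods and the labels differ on the kit version and on how the mice were killed.

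Counts were summed over all nuclei of a library, and mice were the replicates. Genes past filterByExpr were fitted with edgeR 4.0.16 (TMM scaling, quasi-likelihood test, genotype as covariate, Benjamini-Hochberg threshold 0.05). DESeq2 1.42.0, limma 3.58.1 and the alternatives below were run in R 4.3.3. The nuclei were clustered in Python 3.11.15 with scikit-learn neighbours and leidenalg (2000 variable genes, 30 components, Leiden resolution 1). No batch correction was applied, where the study used Harmony. Classes were named from marker genes, and 10844 nuclei (6.74%) marked as doublets were left out of the classes but not of the library sums. A class was fitted with at least 50 nuclei per library and 3 libraries per agent. Single values were compared with a two-sided exact permutation test. In simulated counts, 100 genes were changed by each fold. These are far fewer than the genes called in the data, so the adjusted threshold was stricter there than in the real comparison. For all nuclei (19481 genes), 36% of 2-fold and 77% of 3-fold changes were recovered with 5 false calls, and for astrocyte-like nuclei (11497 genes) 36% and 79% with 4. Intervals of counting error are not given, since the spread between mice was used.

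The genes named were 12 higher and 12 lower genes ranked by adjusted p (unnamed gene models left out), up to 4 called members of each gene list, 17 genes given whatever their result, and up to 3 per direction in each class; some genes that the rule names are not reported here. Further genes named within classes, the sterol genes and Col1a2 among them, were singled out after their values were seen. The members and lists were chosen with earlier results of these data known. The sterol list, the fits without the clusters drawn mainly from mice 25 to 29, the number term within classes and the shares outside these clusters were chosen after seeing the data. Each label stands for 1 mouse. Coordinates are those of GRCm38 (GENCODE release 21 for mouse), promoters those of RefSeq for GRCm38.p6.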

Additional observations from a re-analysis of the deposited data

Results flagged for a closer look

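In 182 groups of 4 or 7 libraries, 20 held 1 library apart from the others by Dixon's test (11.0%, where chance gives about 5%). Of these, 6 were by mouse 25 and 4 by mouse 28. Among library measures, isoflurane mouse 4 stood above its group with a median of 2504 UMIs and 1519 genes per nucleus, where the rest had 1495 to 1840 UMIs and 949 to 1183 genes.

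Ketamine mouse 25 was above the other 3 ketamine mice in Hspa1b (10.1 CPM against 0.296 to 1.48 CPM), C3 (3.58 CPM), Creld2 (2.39 CPM), Nr4a1 (28.4 CPM), Per1 (53.0 CPM) and Olfr1322 (0.114 CPM, the rest at 0). Ketamine mouse 28 was above them in Upk3bl (1.11 CPM), Grm3 (247 CPM) and Calb2 (1.94 CPM) and below them in Grin2a, at 1797 CPM against 2255 to 2342 CPM.

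Among isoflurane mice, mouse 3 was highest in Fos (10.3 CPM against 0.488 to 3.34 CPM) and Calb2 (11.9 CPM), and mouse 4 in Pdk4 (2.82 CPM). Mouse 11 was highest in Hnrnpa1 (47.3 CPM against 20.9 to 29.3 CPM) and Hnrnpm (114 CPM against 69.8 to 81.5 CPM). Mouse 15 was highest in Drd5 (4.93 CPM) and Bdnf (64.5 CPM), and mouse 20 in Prg4 (3.76 CPM).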

How the results depend on the processing

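No paired analysis was possible because each replicate number names 1 mouse and no number is shared between groups. Agent and the stretch of mice 25 to 29 cannot be told apart, and each genotype holds 2 ketamine libraries. Of simulated 2-fold changes, 36% were recovered with 100 genes changed by each fold, which is not the recovery of the real comparison. The cause of the shifts below was not tested.

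The 1502 genes called in all nuclei became 2722 with DESeq2, which shared 1479 of them, 0 with the number term, 63 without the clusters mainly from mice 25 to 29 and without mouse 25, and 264 to 2332 without 1 library. The remaining alternatives gave 1045 to 2103 calls. At common class shares the split moved to 393 higher and 1710 lower with a median log2 fold change of -0.14, and with limma-voom to 772 and 461. The 74 calls in WT mice became 778 with DESeq2, 113 without the low-count filter, 27 without mice 3 and 4, 17 without the clusters and 6 to 166 without 1 library. The 27 calls in APP/PS1 mice became 579, 42 without mice 3 and 4, 8 without the clusters and 5 to 85. The interaction had 6 calls with DESeq2 and 0 without any 1 library. The 1 class share that passed became 3 without mice 3 and 4, 0 among shares outside fibroblasts and these clusters, and 0 to 2 without 1 library. No library measure passed without 1 library (0). Leaving out a library raises the smallest possible p of the permutation test, so a share or measure apart on its own could not pass there.

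Within classes, DESeq2 called 1176 genes in CA1, 530.0 in CA3, 1135 in dentate granule, 632 in inhibitory, 648 in oligodendrocyte, 60.0 in precursor and 352 in subiculum and cortex nuclei. Without the low-count filter there were 1949 in astrocyte, 892 in CA3, 669 in dentate granule, 1296 in inhibitory, 332 in microglia, 1379 in oligodendrocyte, 304 in precursor and 790.0 in subiculum and cortex nuclei. The number term left 2 in astrocyte, 5 in CA1, 2 in oligodendrocyte and 0 in CA3, dentate granule, fibroblast, inhibitory, microglia, precursor and subiculum and cortex nuclei. Without mice 3 and 4, microglia had 249, oligodendrocytes 409, precursors 58 and subiculum and cortex 322. With doublets kept, CA3 had 748, microglia 14 and precursors 27, and at Leiden resolution 2 precursors had 30.0. Without 1 library the counts were 171 to 1351 in astrocyte, 15 to 1149 in CA1, 6 to 529 in CA3, 3 to 1100.0 in dentate granule, 1809 to 2569 in fibroblast, 0 to 980.0 in inhibitory, 6 to 96 in microglia, 14 to 537 in oligodendrocyte, 2 to 81 in precursor and 0 to 456 in subiculum and cortex nuclei.

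Of the 65 named genes called in all nuclei, 30 kept the call in every fit without 1 library, and 17 kept it under all alternatives but the number term. In classes, 32 of 115 did so. With the number term these log2 fold changes turned sign in all nuclei: Hnrnpa1 -0.00124, Rps18 -0.00448, Rpl10 -0.027, Upk3bl 1.30, Pdk4 -0.69, Eif4ebp2 0.19, Rbm3 0.026, mt-Cytb 0.91, Arc 0.32, Nr4a1 0.00307, Homer1 0.53, Grin1 -0.16, Grin2b -0.33, Adra2a 0.31 and Prnp 1.04. In classes it turned Rpl10 in astrocyte (-0.44) and precursor nuclei (-1.17), Grm8 (-0.32), Irs2 (0.34), Arc (0.027) and Homer1 (0.53) in CA1, Kcnh7 in CA3 (-0.20), Upk3bl (4.00), Gadd45g (0.37), Txnip (-0.45) and Rbm3 (0.40) in dentate granule, and Rasgrp1 (-0.23), Mylip (0.73), Gria2 (-0.24), Grik4 (-0.33), Grm7 (-0.049), Gabrb1 (-0.27) and Htr4 (-0.011) in inhibitory nuclei. At common shares Zar1l (-0.032), Lrrc4c (-0.019), Grin2a (0.015), Sgk1 (-0.087) and Fkbp5 (-0.13) turned. Without 1 library, Grin1 ran from -0.078 to 0.12, Sgk1 from -0.0086 to 0.11 and Fkbp5 from -0.016 to 0.30, the last 2 below 0 without mouse 3 only. Sgk1 was at -0.068 without mice 3 and 4, and Fkbp5 at -0.053 without the clusters and -0.016 also without mouse 25.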
